A study of Mus musculus with 4 samples.

Results

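The mRNA of 10 genes that handle neutral lipid was followed in melanoma tumor repopulating cells (TRCs). They include genes for lipid droplet coats (*Plin2*, *Plin3*), the triglyceride lipase *Pnpla2* and its inhibitors (*Hilpda*, *G0s2*), and enzymes of triglyceride synthesis (*Dgat1*, *Dgat2*, *Lpin1*). The others encode a lipoprotein receptor (*Vldlr*) and an enzyme that makes fatty acids ready for import into mitochondria (*Cpt1a*). The genes were taken by symbol, and all 10 were found among the 39179 Ensembl genes counted and were among the 11483 genes tested. B16F1 is an established mouse melanoma line, and the labels name no genetic change or drug in either group. The controls were 2 libraries of parental B16F1 cells, which are cultured on rigid dishes. The TRCs were 2 libraries of spheroids that grew from single B16F1 cells in soft 3D fibrin gels of 90 Pa and were isolated on day 5. TRCs are thus the survivors of the gel, so selection of a subpopulation and the response to the gel cannot be told apart, nor can a change in the share of some cells and a change in RNA per cell in such bulk RNA. Samples of both groups carry the numbers 1 and 3, and no source used here says whether they came from separate cultures, so p-values measure the spread between these libraries only.

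Between 35948295 and 43511554 counts fell on genes in each library. At this depth 3 counts, taken as the smallest detectable number, correspond to 0.0689 to 0.0835 CPM, which are counts scaled to the library size, and this floor holds for counting error alone. Non-unique alignments were assigned to no gene and made up 15.2% to 18.3% in 3 libraries and 25.2% in TRC replicate 3. Levels are CPM scaled with TMM factors, the trimmed-mean normalization of edgeR. The comparison used the exact test of edgeR over all genes tested with Benjamini-Hochberg adjustment (FDR), and a gene was called at FDR under 0.05. DESeq2 supplied the standard error (SE) of each log2 fold change. All 7 melanocyte lineage markers (*Mitf*, *Sox10*, *Pmel*, *Tyr*, *Tyrp1*, *Dct*, *Mlana*) were above the filter in these cells. Their summed level was 15711 to 18915 CPM in controls and 23969 to 26669 CPM in TRCs. Only *Dct* was called, higher in TRCs (log2 fold change 1.08, FDR = 0.000307), with a mean of 5014 CPM in controls and 10591 CPM in TRCs.

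Cells store surplus fatty acid as triglyceride in lipid droplets, which are coated by perilipins. Fatty acid enters by receptor-mediated uptake of lipoproteins or as free acid. Glycerol-3-phosphate is acylated stepwise, a lipin removes the phosphate, and a diacylglycerol acyltransferase (DGAT) adds the last acyl chain. Adipose triglyceride lipase, the product of *Pnpla2*, takes that chain off again and is held back by the small proteins HILPDA and G0S2. The freed acid can be burned in mitochondria once carnitine palmitoyltransferase 1 has made it ready for import. In hypoxic tumor cells lipid uptake and droplet storage are known to rise, and *Hilpda* carries hypoxia in its full name.

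In TRCs *Hilpda*, *Lpin1*, *Dgat2* and *Vldlr* were upregulated, by 4.81-fold, 2.23-fold, 2.44-fold and 3.91-fold, and none of the 10 genes was downregulated. These 4 of 10 genes stand beside 8.81% of all genes tested that were called higher in TRCs and 7.05% called lower. Over the 10 genes the log2 fold change had a median of 0.42, against 0.0034 over all genes tested. The 10 genes were chosen with earlier results of these data known, so these contrasts with all genes are a description only. For 6 of the 10 genes each TRC library exceeded each control library, namely the called ones plus *Plin3* and *Dgat1*, beside 30.2% of all genes tested. No gene of the 10 had both TRC libraries below both controls, which held for 30.4% of all genes tested. *Plin2*, *Pnpla2*, *G0s2* and *Cpt1a* overlapped between the groups. The quasi-likelihood test of edgeR called 2 of the 10 genes higher (*Hilpda* and *Lpin1*), beside 4.94% of all genes tested, and 1 (*Lpin1*), beside 4.15%, once a replicate block was added. DESeq2's Wald test called 4 (*Dgat2*, *Hilpda*, *Lpin1* and *Plin3*), beside 9.49%.

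**Figure D1:**
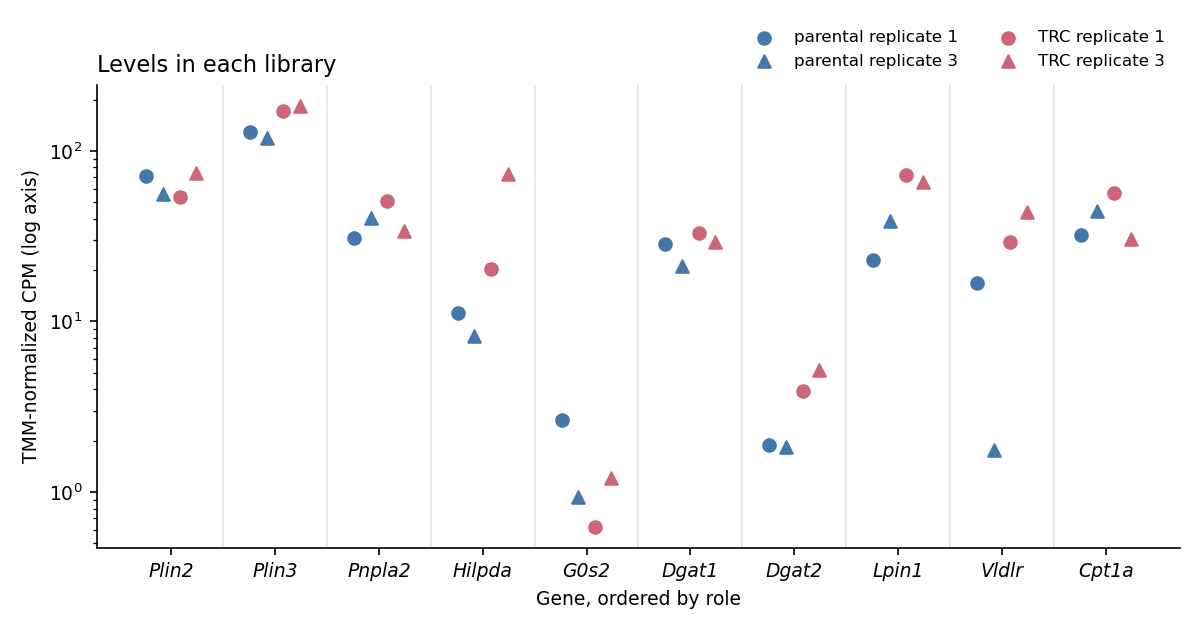
TMM-normalized CPM on a log axis for each of the 10 genes in the 4 libraries (blue, parental; red, TRC; circles, replicate 1; triangles, replicate 3). *Plin3* lay highest, between 119 and 184 CPM, and *G0s2* lowest on average, between 0.625 and 2.63 CPM, while *Vldlr* was far lower in parental replicate 3 (1.76 CPM) than in the other libraries.

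Neither of the droplet coats was called. *Plin2* (chromosome 4, 86648386 to 86670060, minus strand), which encodes the perilipin that cells outside adipose tissue use to coat droplets, was at 71.7 and 55.7 CPM in control replicates 1 and 3. In TRC replicates 1 and 3 it was at 53.5 and 74.5 CPM, so each group spanned nearly the same range. Its log2 fold change was 0.0050 (SE 0.26, FDR = 0.995), a sign that turned with the scaling, to −0.034 when only the library size was used. *Plin3* (chromosome 17, 56277476 to 56292873, minus strand), a perilipin that moves between the cytosol and young droplets, was at 129 and 119 CPM in controls and at 172 and 184 CPM in TRCs. The groups did not overlap, and the means were 124 ± 7.29 and 178 ± 8.51 CPM (SD, n = 2). The log2 fold change of 0.52 (SE 0.19) did not pass the test (FDR = 0.102). With DESeq2's Wald test it did, at an adjusted p of 0.0408, and over all alternatives its FDR ran from there to 0.411.

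*Pnpla2* (chromosome 7, 141455198 to 141460743) was at 31.0 and 40.6 CPM in control replicates 1 and 3. Its TRC libraries were at 51.1 CPM (replicate 1) and 34 CPM (replicate 3). TRC replicate 3 lay between the controls. The log2 fold change of the lipase was 0.25 (SE 0.29, FDR = 0.603).

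*Hilpda* (chromosome 6, 29272488 to 29275446), the hypoxia-inducible inhibitor of the lipase, had 500 and 289 counts in the controls and 840 and 3051 counts in the TRCs. The control level was thus 11.2 CPM in replicate 1 and 8.19 CPM in replicate 3. The TRC level was 20.2 CPM in replicate 1 and 73.3 CPM in replicate 3. Both TRC libraries were above both controls, but they differed from each other by 3.63-fold, more than TRC replicate 1 differed from either control. The means were 9.72 ± 2.16 CPM in controls and 46.8 ± 37.6 CPM in TRCs (SD, n = 2), with a log2 fold change of 2.27 (SE 0.48, FDR = 8.38e-05). Without TRC replicate 3 the log2 fold change was 1.05 and the call was lost (FDR = 0.149), and without TRC replicate 1 it was 2.90 (FDR = 2.91e-15). Across all alternatives the FDR lay between these values, and the sign was the same in all 15.

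Its annotated transcripts begin at 2 nearby positions, 29272488 and 29272626. The 250 bases before the downstream start hold the letters of the hypoxia response element core 3 times, once as ACGTG and 2 times as GCGTG, searched on both strands. They are shown because *Hilpda* had the largest fold change of the set. Coordinates are GRCm38, the bases come from RefSeq (GRCm38.p6), the plus strand is read 5′ to 3′, and capitals mark the match.
Hilpda, match beginning 111 bases before the start, chr6:29272503-29272531: caaccgcgagccGCGTGctttccgtgact
Hilpda, match beginning 43 bases before the start, chr6:29272571-29272599: gatggccagcggACGTGccccagggcgag
Hilpda, match beginning 8 bases before the start, chr6:29272606-29272625: caggttcggtacGCGTGcgc
The first pair lie within the 5′ untranslated exon of the transcript that begins upstream, and 3 bases of the last do. No match lies in the 250 bases before the upstream start.

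Windows of the same length were found for 8 of the 10 genes, as 10 windows. Those of *Plin2* and *G0s2* hold 1 GCGTG each, and the windows of *Lpin1*, *Vldlr*, *Plin3*, *Pnpla2* and *Cpt1a* hold neither. Of 32851 RefSeq gene-start windows, 16.6% hold ACGTG, 28.2% hold GCGTG and 38.6% hold at least 1 of them, so 3 of 10 windows is close to the background. A palindromic E-box, CACGTG, which contains ACGTG, was in none of the 10 windows and in 6.0% of all. A match describes letters and not a bound site.

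*G0s2* (chromosome 1, 193272161 to 193273217, minus strand) encodes the other inhibitor, named for the switch out of quiescence. Its counts were low, at 117 (replicate 1) and 33 (replicate 3) for the controls and at 26 and 50 for the TRCs. The level was thus 2.63 and 0.935 CPM in controls, and 0.625 and 1.20 CPM in TRCs, with control replicate 3 inside the range of the TRCs. Its log2 fold change of −0.97 (SE 0.80, FDR = 0.295) rested on control replicate 1, without which it was −0.033. The gene overlaps *Lamb3* on the opposite strand, which had at most 3 counts in any library. Per kilobase of exon, the ratio of *Hilpda* to *G0s2* mRNA was 3.37 and 6.92 in the controls and 25.5 and 48.2 in the TRCs. The groups did not overlap in this ratio, but with 2 libraries a group no exact two-sided permutation p can go below 0.333. The ratio of *Hilpda* to *Pnpla2* was 0.993 and 0.553 in the controls and 1.08 and 5.90 in the TRCs, a narrow gap. That of *G0s2* to *Pnpla2* overlapped, at 0.294 and 0.080 in the controls and 0.042 and 0.123 in the TRCs.

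Triglyceride synthesis held the only gene of the 10 whose call stood in all 15 alternatives. *Lpin1* (chromosome 12, 16535669 to 16610966, minus strand), a phosphatidate phosphatase that makes diacylglycerol and also acts in the nucleus as a co-regulator of transcription, was at 22.9 and 39.1 CPM in control replicates 1 and 3. It was at 72.1 and 66.0 CPM in TRC replicates 1 and 3, so the TRC libraries lay close together and above both controls. The controls lay further apart, with a log2 difference of −0.76 (replicate 1 minus 3), larger in size than for 91.7% of the genes tested. The log2 fold change was 1.16 (SE 0.29, FDR = 0.000681). It was called in all 15 alternatives, with an FDR of at most 0.0454, and with each library left out in turn its log2 fold change ran from 0.82 to 1.59. The sequence before its annotated start is printed because it is the member whose call held throughout. It is the RefSeq window of 250 bases on the minus strand of GRCm38.p6, 5′ to 3′, and it is in lower case throughout because neither motif occurs in it.
Lpin1, chr12:16610967-16611216: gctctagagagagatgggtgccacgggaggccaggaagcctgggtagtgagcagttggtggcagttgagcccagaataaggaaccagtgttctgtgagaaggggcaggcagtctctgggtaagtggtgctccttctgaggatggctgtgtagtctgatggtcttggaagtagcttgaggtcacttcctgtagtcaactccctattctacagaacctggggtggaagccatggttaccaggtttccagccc

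*Dgat2* (chromosome 7, 99153658 to 99182719, minus strand), the acyltransferase that makes most triglyceride in many tissues, had 84 and 65 counts in the controls and 163 and 216 counts in the TRCs. That is 1.89 and 1.84 CPM in controls, and 3.92 and 5.19 CPM in TRCs. Its control libraries agreed closely and both TRC libraries lay above them, with a log2 fold change of 1.29 (SE 0.46, FDR = 0.0326). At these counts the call was fragile. It was lost in edgeR's quasi-likelihood test (FDR = 0.0783) and whenever any library was left out, with FDR values from 0.101 to 0.314, although the log2 fold change stayed between 1.06 and 1.46. *Dgat1* (chromosome 15, 76502015 to 76511953, minus strand), the other acyltransferase of the set, was at 28.5 and 21.1 CPM in controls and at 32.8 and 29.2 CPM in TRCs. The groups did not overlap, but the gap between TRC replicate 3 and control replicate 1 was small, and the log2 fold change was 0.32 (SE 0.26, FDR = 0.475).

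*Vldlr* (chromosome 19, 27216484 to 27254231), the receptor for very-low-density lipoprotein, was counted 745 times in control replicate 1 and 62 times in control replicate 3, against 1207 and 1811 times in the TRCs. Its level was 16.8 and 1.76 CPM in controls, and 29.0 and 43.5 CPM in TRCs. Both TRC libraries were higher than both controls, but the controls differed by 9.54-fold, more than the group means of 9.26 ± 10.6 and 36.3 ± 10.2 CPM (SD, n = 2). The log2 fold change was 1.97 with an SE of 1.34 (FDR = 0.0311). Control replicate 3 set much of its size, since the log2 fold change was 1.11 without that library (FDR = 0.0386) and 4.37 without control replicate 1 (FDR = 3.15e-17). The call was lost without TRC replicate 1 (2.21, FDR = 0.0745) and without TRC replicate 3 (1.63, FDR = 0.244). DESeq2's Wald test did not call *Vldlr* (adjusted p = 0.328), nor did the quasi-likelihood test (FDR = 0.145).

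*Cpt1a* (chromosome 19, 3322334 to 3385733), the broadly expressed form of carnitine palmitoyltransferase 1, was at 32.1 and 44.3 CPM in control replicates 1 and 3. In TRC replicates 1 and 3 it was at 56.3 and 30.5 CPM, above and below both controls. The log2 fold change was 0.18 (SE 0.33, FDR = 0.751), and its sign changed when control replicate 1 or TRC replicate 1 was left out.

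**Figure D2:**
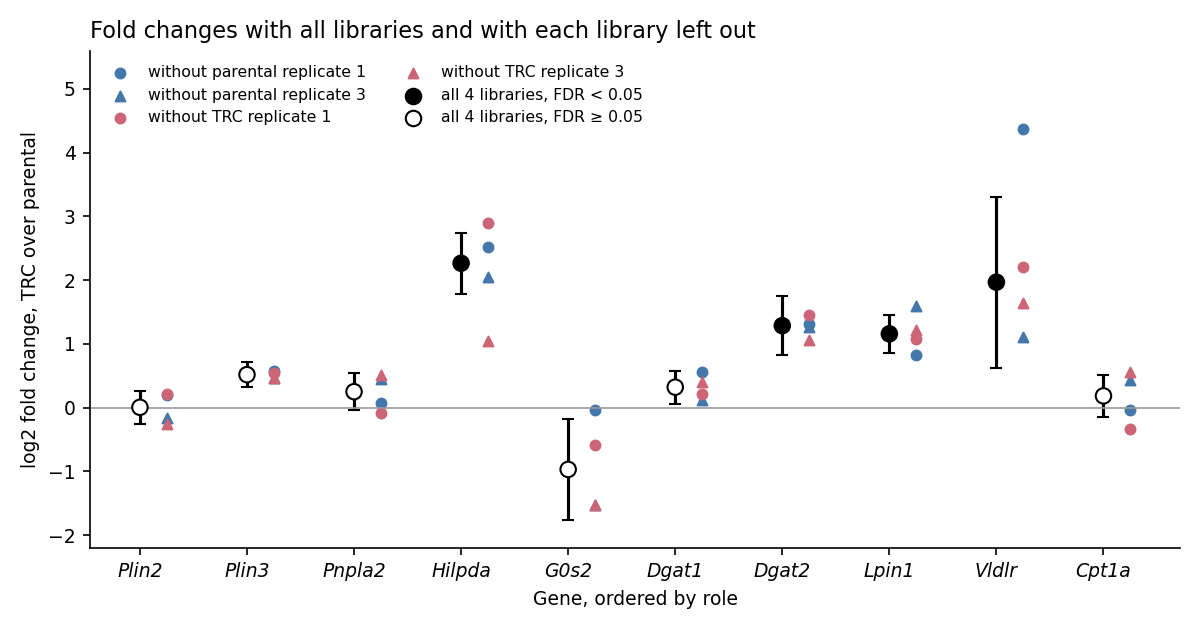
log2 fold change of TRCs over parental cells for the 10 genes, with all 4 libraries (large circles with the DESeq2 SE as bars, filled where FDR is under 0.05) and with each library left out (small symbols at the right). With a library left out *Lpin1* ran from 0.82 to 1.59, *Dgat2* from 1.06 to 1.46, *Hilpda* from 1.05 to 2.90 and *Vldlr* from 1.11 to 4.37.

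The 10 genes differed more between libraries of the same group than genes in general. The median absolute log2 difference between the control libraries was 0.43 for the 10 genes and 0.25 for all genes tested, and between the TRC libraries it was 0.53 and 0.21. *Vldlr* had a log2 difference of 2.93 between the controls, larger in size than for 99.9% of the genes tested, and *G0s2* one of 1.13. Between the TRCs *Hilpda* stood out in the same way, with TRC replicate 1 lower by a log2 difference of −1.83, larger in size than for 99.8% of the genes tested. *Cpt1a*, *Pnpla2*, *Dgat1* and *Lpin1* went the other way, with 0.87, 0.58, 0.17 and 0.13. Like *Hilpda*, *G0s2*, *Vldlr*, *Plin2*, *Dgat2* and *Plin3* were higher in TRC replicate 3, with −0.60, −0.58, −0.47, −0.36 and −0.097. Each value compares only 1 library with another. TRC replicate 3 is also the library with the larger share of alignments that were not unique, and the part of that share in these differences was not tested.

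**Figure D3:**
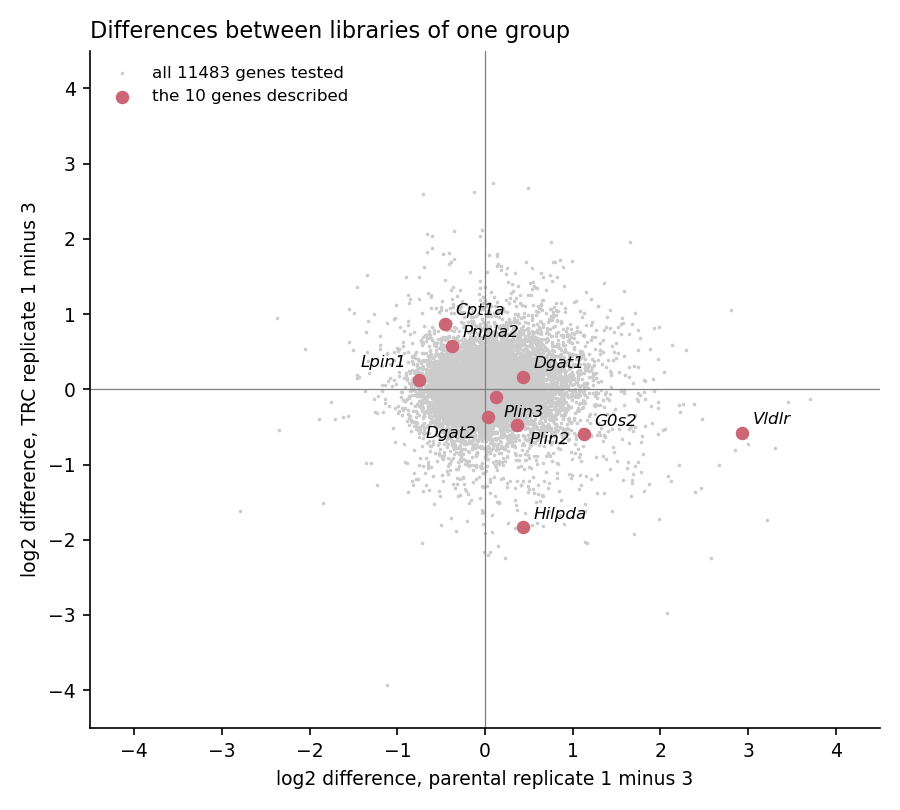
log2 difference between the libraries of one group, controls on the horizontal axis and TRCs on the vertical axis, for all 11483 genes tested (grey) and the 10 genes (red). *Vldlr* lies far to the right, with 2.93 between the controls, and *Hilpda* far down, with −1.83 between the TRCs.

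Levels can be compared between genes only per length, and they are given here as CPM per kilobase of merged exons. In controls *Plin3* was highest at 32.8 ± 1.93, followed by *Plin2* at 18.1 ± 3.21, *Pnpla2* at 11.8 ± 2.23, *Hilpda* at 8.81 ± 1.96 and *Dgat1* at 8.11 ± 1.73 (SD, n = 2). Neighbours from *Pnpla2* to *Dgat1* differed by less than the sum of their SDs. The lower end held *Cpt1a* at 5.0, *Lpin1* at 3.20, *G0s2* at 2.05, *Vldlr* at 0.919 and *Dgat2* at 0.605 CPM per kilobase. In TRCs *Hilpda* took the second place, at 42.4 ± 34.1 CPM per kilobase, a place that its SD does not separate from *Plin3* at 47.0 or *Plin2* at 18.2. *Lpin1* rose to 7.14 ± 0.450, and *Cpt1a*, at 5.68 ± 2.38, was not separated from it. *G0s2* became the lowest at 1.05 CPM per kilobase.

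Most of these genes have relatives in the same family or pathway, and the share of each in their summed mRNA is given here. The relatives summed need not serve the same step, and *Pnpla2*, *Lipe* and *Mgll* act on different lipids. Of the summed DGAT mRNA per kilobase, *Dgat2* made up 6.16% and 7.98% in the controls and 10.6% and 15.0% in the TRCs. *Dgat1* therefore supplied most of the DGAT mRNA in every library. Among the lipins *Lpin1* made up 39.5% and 41.7% in controls and 59.9% and 52.9% in TRCs, while *Lpin2* went from 59.3% and 57.1% to 33.6% and 44.8%. By the longest transcript in place of merged exons, a choice made after seeing the data, *Lpin1* made up 34.5% and 36.6% in controls and 56.5% and 47.9% in TRCs, so in TRC replicate 3 *Lpin2*, at 50.8%, then stayed above it. *Lpin2* itself was not called, with a log2 fold change of 0.13 (FDR = 0.803), and the summed lipin level was 6.0 and 9.68 CPM per kilobase in controls and 12.5 and 12.9 in TRCs.

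In the perilipin family *Plin2* made up 37.4% and 33.5% in controls and 25.1% and 30.4% in TRCs, and *Plin3* nearly all of the rest. By the longest transcript *Plin2* was the larger of the pair in control replicate 1, with 51.7%. *Plin1*, *Plin4* and *Plin5*, the coats typical of fat and muscle cells, had at most 3 counts in any library.

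*Cpt1a* made up 49.5% and 66.8% of the summed CPT1 mRNA per kilobase in control replicates 1 and 3. Its share was 68.5% and 42.6% in TRC replicates 1 and 3, so the groups overlapped. The neuronal form *Cpt1c* held most of the rest. Among the lipases the shares of *Lipe* and *Pnpla2* did not overlap between the groups, that of *Pnpla2* only narrowly, while the share of *Mgll* overlapped. Hormone-sensitive lipase, *Lipe*, which takes diacylglycerol after *Pnpla2* has acted, was at 2.04% and 2.26% of the summed lipase level in controls and at 7.10% and 5.28% in TRCs. *Pnpla2* remained the main lipase mRNA, with 69.4% and 88.8% in controls and 68.3% and 61.4% in TRCs, and the monoacylglycerol lipase *Mgll* held most of the rest.

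**Figure D4:**
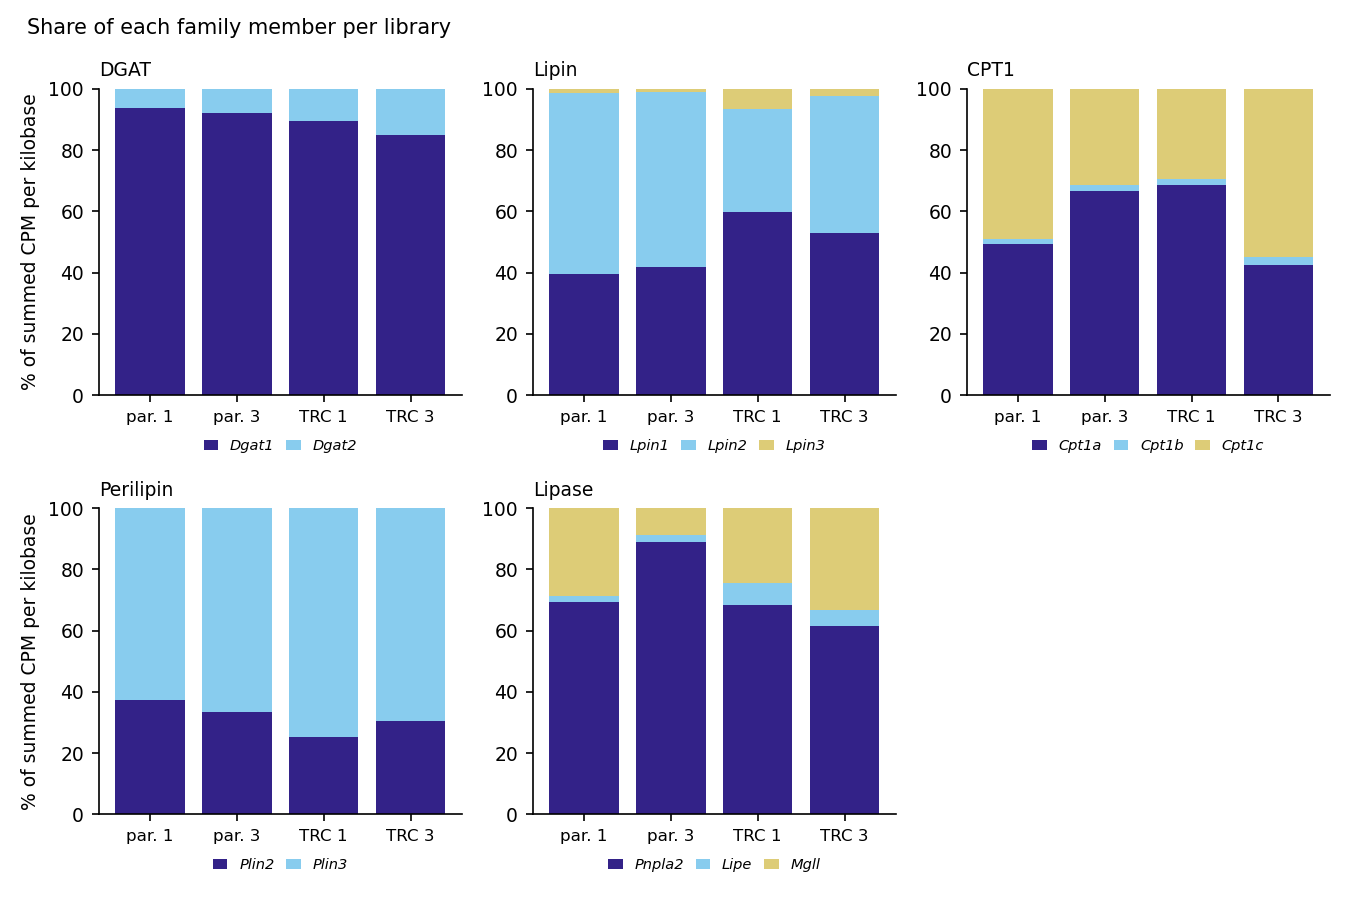
Share of each relative in the summed CPM per kilobase of its family, for 5 families and each library (par., parental). Members under 0.5% in every library are not drawn. The share of *Lpin1* among the lipins is 39.5% and 41.7% in the controls and 59.9% and 52.9% in the TRCs, and that of *Dgat2* among the DGATs goes from 6.16% and 7.98% to 10.6% and 15.0%.

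The same pathway was then followed beyond these genes, in 107 genes of 6 lists, of which 106 were matched to an identifier (*Ldaf1* was not) and 82 passed the filter on low counts. Of the 82 genes, 14 were called higher and 1 lower, which is 18.3% in either direction beside 15.9% of all genes tested, with a median log2 fold change of 0.17. Most of the other 24 genes were hardly expressed, as 19 of them had at most 10 counts in every library. The quasi-likelihood test called 10 of the 15 genes, losing *Hsd17b11*, *Acsl6*, *Gpd1*, *Ppard* and *Soat1*. With each library left out in turn 2 genes, *Fabp7* and *Eci2*, were called every time, and the other 13 lost their call without at least 1 library. The counts of each list below stand beside the 8.81% called higher and 7.05% called lower among all genes tested, and nothing particular to a list is read from them.

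Among genes of droplet coat and formation 1 of 6 tested was called. *Hsd17b11*, a dehydrogenase found on droplets, was at 44.1 and 42.5 CPM in controls and at 142 and 65.0 CPM in TRCs (log2 fold change 1.26, FDR = 0.00156). TRC replicate 1 was the higher one, the reverse of *Hilpda*, and without it the log2 fold change was 0.57 (FDR = 0.269). *Fitm2* and *Bscl2*, which shape new droplets, were not called, with log2 fold changes of −0.41 and −0.20, and the *Cide* genes that fuse droplets had at most 10 counts. The median of this list was −0.046.

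Of 8 genes of lipolysis 1 was called higher, and it was *Lipe*, at 1.78 and 2.01 CPM in controls and at 10.3 and 5.70 CPM in TRCs (log2 fold change 2.08, SE 0.45, FDR = 0.000351). Without TRC replicate 1 it was 1.57 (FDR = 0.0702). *Abhd5*, which activates the lipase, was at 66.5 and 64.7 CPM in controls and at 50.9 and 49.5 CPM in TRCs and did not pass the test (log2 fold change −0.39, FDR = 0.241). *Pnpla3*, a relative of *Pnpla2*, was below the filter, with 2 and 6 counts in controls and 94 and 30 in TRCs. *Mgll* had a log2 fold change of 1.13 (FDR = 0.0565), with control replicate 3 lowest.

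In triglyceride and sterol ester synthesis 3 of 17 genes were called higher and 1 lower. *Lpin3* had only 12 and 14 counts in controls and 123 and 45 in TRCs (log2 fold change 2.60, FDR = 0.00115), and without TRC replicate 1 the log2 fold change was 1.69 and the call was lost (FDR = 0.162). *Soat1*, which esterifies cholesterol for storage, was at 103 and 89.0 CPM in controls and at 134 and 202 CPM in TRCs (log2 fold change 0.80, FDR = 0.0176). Its call was lost in the quasi-likelihood test (FDR = 0.0645), without control replicate 3 (FDR = 0.209) and without TRC replicate 3 (0.47, FDR = 0.399). *Gpd1*, which makes glycerol-3-phosphate from a glycolytic intermediate, was higher in TRCs (log2 fold change 0.83, FDR = 0.0353), whereas *Gk*, which makes it from glycerol, fell from 58.3 and 60.2 CPM to 35.6 and 28.6 CPM (log2 fold change −0.88, FDR = 0.00316). *Gpd1l*, which makes the same product as *Gpd1*, was at 40.7 and 62.5 CPM in controls and at 47.5 and 40.6 CPM in TRCs and was not called (log2 fold change −0.23, FDR = 0.622). Without TRC replicate 3 *Gk* was not called (−0.74, FDR = 0.146). The call of *Gpd1* did not hold in the quasi-likelihood test (FDR = 0.0926) or without control replicate 1 (0.49, FDR = 0.276), TRC replicate 1 (FDR = 0.253) or TRC replicate 3 (FDR = 0.152). The acyltransferases *Gpam*, *Gpat4* and *Agpat1* to *Agpat5* were not called, with log2 fold changes between −0.35 and 0.69.

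Uptake and activation of fatty acids had 5 called genes of 16, all of them higher. *Fabp7*, a fatty acid-binding protein of neural and melanocytic cells, was at 7.92 and 5.61 CPM in controls and at 32.8 and 22.5 CPM in TRCs (log2 fold change 2.03, SE 0.32, FDR = 9.94e-07). It was called in all 15 alternatives. *Scarb1*, the receptor for high-density lipoprotein, was at 112 and 155 CPM in controls and at 240 and 354 CPM in TRCs (log2 fold change 1.16, FDR = 0.000466), and without TRC replicate 3 it was 0.84 (FDR = 0.0636). Of the acyl-CoA synthetases *Acsl3*, *Acsl4* and *Acsl6* were called higher at log2 fold changes of 0.75, 0.74 and 1.60, while *Acsl1* and *Acsl5* were at −0.39 and −0.49 and were not called. *Acsl3* lost its call whenever any library was left out (FDR from 0.0676 to 0.104). *Acsl4* lost it without control replicate 1 (FDR = 0.0975), TRC replicate 1 (FDR = 0.0745) or TRC replicate 3 (FDR = 0.155). *Acsl6* lost it in the quasi-likelihood test (FDR = 0.0707) and without control replicate 1 (FDR = 0.0641), control replicate 3 (FDR = 0.132) or TRC replicate 1, where its log2 fold change was 0.95 (FDR = 0.394). The lipoprotein lipase system was close to silent, with at most 1 count of *Lpl*, *Gpihbp1* or *Angptl4* in any library, and *Cd36* had at most 16.

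In the list of mitochondrial import and beta-oxidation 1 of 23 genes was called, beside 15.9% of all genes tested in either direction. That gene, *Eci2*, an isomerase for unsaturated fatty acids, was at 73.0 and 64.6 CPM in controls and at 194 and 145 CPM in TRCs (log2 fold change 1.3, SE 0.23, FDR = 5.58e-06). The other 22 had log2 fold changes between −0.31 and 0.82. Of the regulators, *Hif1a* was called higher (log2 fold change 0.96, FDR = 0.00209), as were *Nr1h2* (0.70, FDR = 0.0165) and *Ppard* (0.65, FDR = 0.0434), whereas *Ppara* and *Pparg*, the classical switches of fat oxidation and storage, had at most 5 counts in any library. Without TRC replicate 1 *Hif1a* was not called (0.71, FDR = 0.126). *Nr1h2* lost its call without control replicate 3 (FDR = 0.179), TRC replicate 1 (FDR = 0.142) or TRC replicate 3 (FDR = 0.156). *Ppard* was not called in the quasi-likelihood test (FDR = 0.0787) or with any library left out (FDR from 0.053 to 0.462).

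**Figure D5:**
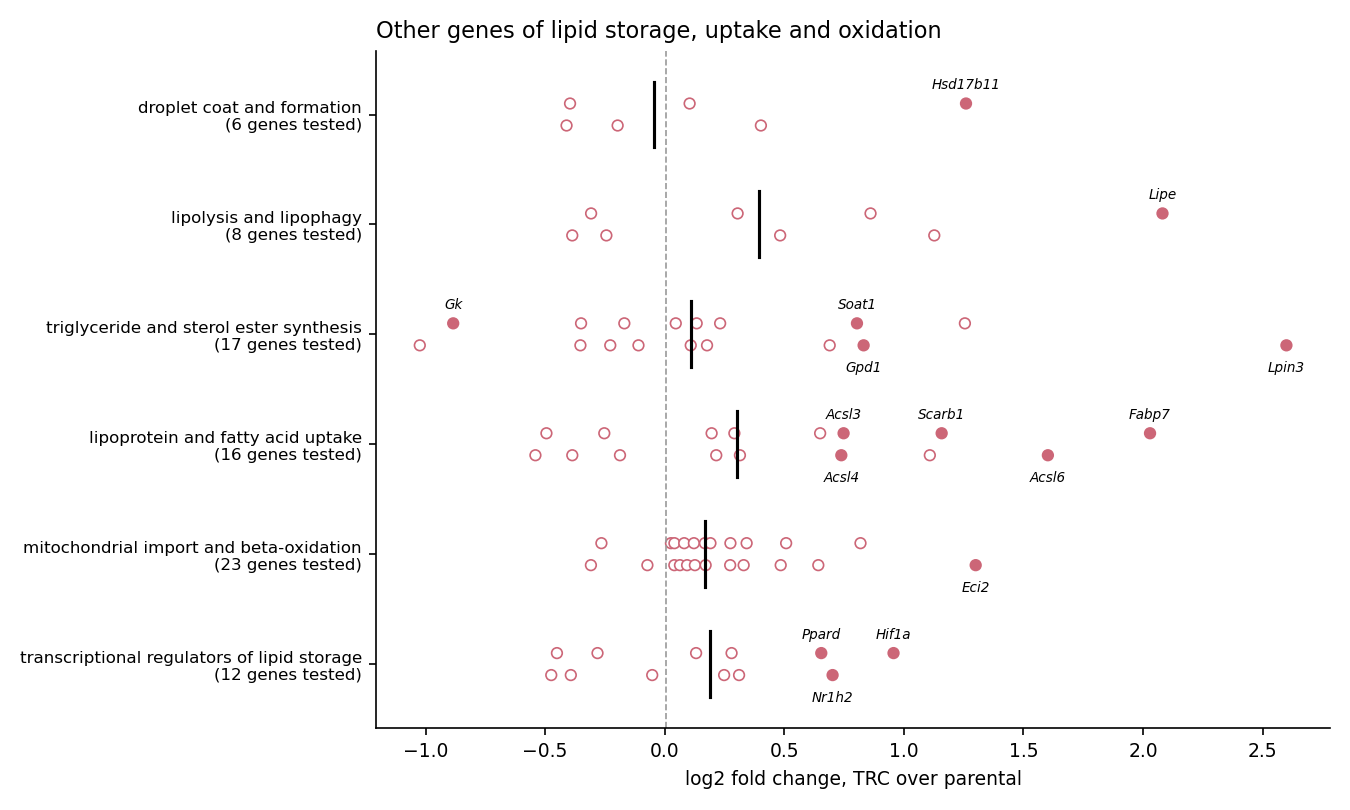
log2 fold change of TRCs over parental cells for the 82 other lipid genes tested, by list (filled, FDR under 0.05; black bars, median of the list; dashed line, median of all genes tested). The called genes lie to the right with the exception of *Gk* at −0.88, and *Eci2* at 1.3 is the only called gene of the oxidation list.

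Profiles like those of the 2 members with the smallest FDR were sought among 10784 other protein-coding genes, by the Euclidean distance of log2 values over the 4 libraries after each was centred on its mean. Nearest to *Hilpda* were *Kdelr3*, *Grhpr* and *Rcor2*, at distances of 0.398 to 0.404. *Grhpr* was at 13.4 and 11.9 CPM in the controls and at 24.9 and 70.9 CPM in the TRCs, so it shared the high value of TRC replicate 3. Nearest to *Lpin1* were *Slc39a10*, *Fam13a* and *Hip1r*, at distances of 0.157 to 0.193. *Slc39a10* was at 40.9 and 73.0 CPM in controls and at 118 and 108 CPM in TRCs. With 4 libraries such likeness is a description only.

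Defining markers of several other cell types were absent, but not all markers were. Of 7 adipocyte markers 6 had at most 3 counts in any library, including *Adipoq*, *Plin1* and *Fabp4*, and the seventh was *Lipe*. *Ptprc*, *Adgre1*, *Itgam* and *Fcgr1* of leukocytes had 0 counts in all libraries. The same list of 8 also holds *Cd68*, with 183 and 62 counts in controls and 66 and 77 in TRCs (not called), *Lyz2*, with 36 and 10 against 3 and 10, *Cd36*, with at most 16, and *Csf1r*, with at most 2. Their summed level was 2.04 to 4.99 CPM in controls and 1.92 to 2.48 CPM in TRCs. *Alb* of hepatocytes had 0 counts. Of 6 fibroblast markers 2 were tested. *Col1a2* had 298 and 275 counts in controls and 63 and 42 in TRCs and was lower there (log2 fold change −2.52), and *Pdgfra* had 63 and 44 counts against 76 and 45 and was not called. The summed fibroblast level was 8.86 and 9.35 CPM in controls and 3.61 and 2.36 CPM in TRCs, and its part in the results above was not tested.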

How the data were processed

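The 4 RNA samples were 2 of parental B16F1 cells and 2 of TRCs. The authors made stranded libraries. Per the submitters' processing notes, single-end reads went through Trimmomatic 0.35 and TopHat2 2.1.0 (GRCm38), and HTSeq gave counts per Ensembl gene. Whether HTSeq used strand, and in which mode, is not given in the sources used here. The deposited values are raw counts per gene. Genes with less than 1 CPM in at least 3 samples were removed, TMM factors were computed (0.957 to 1.04), and edgeR 4.0.16 (R 4.3.3) gave common and tagwise dispersions by its default moving average, the exact test and fold changes with a prior count of 0.125. Reads that are not on a gene were removed first. SEs came from DESeq2 1.42.0. Library differences used log2 of CPM plus 0.5. Symbols, positions and exon lengths came from GENCODE M21 (GRCm38), a later annotation than that of the counts, in which 37607 identifiers were found. The tests were tested on simulated data in which 200 genes were changed and every gene had the same dispersion. That simulation does not bear on calls of genes whose libraries differ widely, such as *Hilpda* and *Vldlr*. The genes described, the lists and the rule for named genes were chosen with earlier results of these data known. Named are the 10 genes, the list genes called or singled out after their values were seen, and 3 genes nearest in profile to each of the 2 members with the smallest FDR. Alternatives covered filters, scalings, dispersions, tests, the prior count, the length and each library left out. Dispersions shrunk toward the common value were added after the data were seen, as were the alternatives for list genes. Some results of the lists are not reported here. Plots used matplotlib 3.10.9.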

Additional observations from a re-analysis of the deposited data

How the results depend on the processing

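Of the 10 genes, 4 were called. The quasi-likelihood test called 2 (*Hilpda* and *Lpin1*), or 1 (*Lpin1*) with a replicate block, and leaving out each library in turn gave 1 to 3. Of the list genes 15 were called, 7 with the replicate block, 7 with an added 2-fold change and 5 to 13 with a library left out. Over all genes 1822 were called, 785 with the replicate block and 1054 without it in the quasi-likelihood fit, 975 with an added 2-fold change, 1685 with dispersions shrunk toward the common value (chosen after seeing the data) and 773 to 1932 with a library left out. In these fits the lone library is assumed to vary like the other group. The numbers 1 and 3 are not known to pair the samples, and the deviations of same-numbered libraries correlated with r = 0.027 across genes. The log2 fold change of *Plin2* turned negative without a filter (−0.024), with library size only (−0.034) and with the replicate block (−0.0033), and ran from −0.26 to 0.21 with a library left out. That of *Pnpla2* ran from −0.088 to 0.51 and that of *Cpt1a* from −0.34 to 0.55, and the cause was not tested. A filter of 1 CPM in at least 3 samples removed *G0s2*. With the longest transcript in place of merged exons *Plin2* in controls was at 33.8 CPM per kilobase, close to *Plin3* at 34.1. Depth limits *G0s2*, *Dgat2*, *Vldlr*, *Lpin3*, *Acsl6* and *Lipe*, whose lowest libraries had 26, 65, 62, 12, 56 and 71 counts.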
